A study of Homo sapiens with 8 samples.

Results

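Cholesterol synthesis and sterol regulation in HepG2 cells were followed through 31 genes, picked for their place in the pathway and matched by symbol to the Entrez gene identifiers of the count tables, which list 26235 genes. They were 19 genes of synthesis, 5 of sterol sensing, 3 of sterol uptake and carriage, 2 of efflux and 2 of esterification. The 30 genes with enough counts were tested, and ABCG1, at 0 to 11 counts per library, was not.

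Cells build cholesterol from acetyl-CoA through mevalonate, farnesyl diphosphate, squalene and lanosterol, and the enzymes of this chain are classic targets of the transcription factor SREBP2, encoded by SREBF2. When membranes hold little sterol, the escort protein SCAP carries the SREBP precursor from the endoplasmic reticulum to the Golgi, where proteases release the active factor, and INSIG proteins hold SCAP back when sterol is plentiful. Surplus cholesterol is stored as esters or exported to lipoproteins by ABC transporters under control of the nuclear receptor LXR, and the liver is the main organ of both synthesis and disposal.

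HepG2 is an established human hepatocellular carcinoma line, here obtained from ATCC and kept in DMEM without phenol red and with charcoal-stripped serum. After 16 h of starvation in 0.1% FBS, cells were treated for 48 h with the vehicle DMSO (Control) or with 1 µM of E2 (estradiol, the natural steroid estrogen), PPT (a nonsteroidal agonist selective for ERα) or DPN (a nonsteroidal agonist selective for ERβ), and 2 libraries per group, 8 in all, were analysed. The methods speak of water-soluble E2 and also of first dissolving each chemical in DMSO, and the 4 groups hold no separate vehicle for such a preparation, so an effect of the E2 preparation and of E2 cannot be told apart. Neither the labels nor the methods say that replicates were separate cultures, so p-values measure the spread between these libraries, which may be technical.

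Libraries held 25103160 to 29670814 counts. Replicates of a group differed by more than counting noise, with a chi-square per degree of freedom of 4.83 in Control, 6.73 with E2, 11.3 with PPT and 5.17 with DPN over genes. Hepatocyte markers (ALB, APOA1, APOA2, APOB, TTR, SERPINA1, FGA, FGB, TF) were abundant in each library, and their summed level in CPM (counts scaled to the size of each library) was 42513 to 42908 in Control, 64064 to 67667 with E2, 32674 to 35188 with PPT and 33591 to 34384 with DPN. Of these 9 markers, 5 were higher and 3 lower with E2, 1 higher and 6 lower with PPT, and 0 higher and 8 lower with DPN. AFP and GPC3, markers of hepatoma and fetal liver, summed to 23032 to 24270 CPM in Control and to 11318 to 16742 CPM in treated cells. COL1A1, COL1A2, DCN, PTPRC and CD3E, which define fibroblasts and immune cells, had 0 to 5 counts per library. The summed levels of fibroblast and stellate markers (1.87 to 11.1 CPM), immune markers (9.05 to 31.1 CPM) and endothelial markers (1.83 to 7.78 CPM) were highest with E2, mainly through PDGFRB and CD68 in the first and second. Whether this shift of marker genes had a part in the sterol results was not tested, and in RNA from whole cultures fewer cells expressing a gene and less RNA per cell cannot be told apart.

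Promoters were read first for the letters of known regulatory sites. RefSeq promoters on GRCh38.p14 were given for 25 of the 31 genes, and the 250 bases before each transcription start were searched on both strands. A sterol regulatory element (ATCAC, 1 free base, CCAC; the SREBP site) was found before SREBF2 and before no other of the 25 genes, and 44 of 35116 starts of all genes (0.125%) held it. The CCAAT box, the site of NF-Y, a factor known to work with SREBP, stood before 19 of the 25 genes. Counted by start, 21 of 33 starts of these genes held it (63.6%), and 16 of 23 starts of the synthesis genes (69.6%), against 32.0% of all starts. Neither the palindromic estrogen response element (GGTCA, 3 free bases, TGACC; in 0.0399% of all starts) nor the LXR repeat (AGGTCA, 4 free bases, AGGTCA; in 0.0142%) was found before the 25 genes. The letters of a site in this window do not show that a factor binds there. Their absence says nothing beyond the window, nor of sites within it that differ from these letters. A promoter is printed below for SREBF2, the gene that held the sterol regulatory element. MVD, HMGCS1 and MSMO1 follow as examples of the synthesis genes that rose with both PPT and DPN. Each runs 5′ to 3′ towards the start and ends before the first exon, and capitals mark the sterol regulatory element and the CCAAT letters (ATTGG where they lie on the other strand). The stretches are chr22:41832855-41833104 (plus strand), chr16:88663162-88663341 (minus strand), chr5:43313513-43313662 (minus strand) and chr4:165327419-165327666 (plus strand), in this order.
SREBF2: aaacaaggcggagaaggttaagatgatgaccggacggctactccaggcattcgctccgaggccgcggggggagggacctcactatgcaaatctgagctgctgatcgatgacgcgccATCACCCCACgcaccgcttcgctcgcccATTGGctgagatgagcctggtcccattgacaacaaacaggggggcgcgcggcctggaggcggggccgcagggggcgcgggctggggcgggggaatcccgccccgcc
MVD: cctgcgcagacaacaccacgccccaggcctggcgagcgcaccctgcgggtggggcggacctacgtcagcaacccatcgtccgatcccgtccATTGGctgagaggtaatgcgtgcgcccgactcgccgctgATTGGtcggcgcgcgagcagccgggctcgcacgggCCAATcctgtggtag
HMGCS1: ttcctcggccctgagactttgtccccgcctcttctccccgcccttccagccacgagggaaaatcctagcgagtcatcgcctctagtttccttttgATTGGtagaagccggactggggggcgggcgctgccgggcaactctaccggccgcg
MSMO1: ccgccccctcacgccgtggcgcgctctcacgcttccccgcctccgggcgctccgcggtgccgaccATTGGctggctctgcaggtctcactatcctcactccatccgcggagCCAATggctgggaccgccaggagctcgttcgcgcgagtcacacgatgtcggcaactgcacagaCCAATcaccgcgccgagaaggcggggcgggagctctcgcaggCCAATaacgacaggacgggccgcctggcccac
The SREBF2 stretch holds both sites, with the sterol regulatory element 134 bases before the start. The MSMO1 stretch holds 4 CCAAT boxes, the MVD stretch 3 and the HMGCS1 stretch 1. Of the 250 bases searched, 248 are printed for MSMO1, 180 for MVD and 150 for HMGCS1. The unprinted part of the HMGCS1 window holds a further CCAAT box, 100 bases before the start.

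The compounds differed in how much of the pathway they moved. Of the 30 genes tested, 10 were higher and 8 lower with E2 at an adjusted p under 0.05, where 30.8% of all 15460 tested genes were higher and 31.8% lower. PPT raised 19 and lowered 5, against a background of 22.9% higher and 22.8% lower. DPN raised 13 and lowered 6, against 24.4% and 24.1%. Medians of the log2 fold change over the 30 genes were 0.07 (E2), 0.50 (PPT) and 0.16 (DPN), and over all tested genes -0.00409, 0.00749 and -0.00451. All 3 comparisons use the same Control libraries. The study set its limit at a log2 fold change over 1.5, up or down, with an adjusted p under 0.01. By this limit INSIG2 (higher) and SOAT2 (lower) were called with E2, against 7.15% and 2.98% of all genes. SOAT2 was called lower with PPT (background 1.9% higher, 2.86% lower), and none of the 30 was called with DPN (background 1.92% higher, 2.02% lower), so most of the pathway moved by less than that limit.

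The E2 counts depended on the scaling. TMM, the scaling used here, and plain library size differed by a median of -0.22 on the log2 scale in E2 against Control, and with plain library size 33.6% of the changed genes in that comparison were higher, in place of 49.3%. Of all 15460 tested genes, 6753 were then lower with E2, in place of 4911. The number of the 30 genes that were lower with E2 was then 14 in place of 8, through IDI1 (-0.25), GGPS1 (-0.35), SQLE (-0.18), CYP51A1 (-0.25), NSDHL (-0.39) and SREBF1 (-0.32), none of which passed with TMM. SQLE and ABCA1 changed sign, as did MSMO1 (-0.12), STARD4 (-0.12), TM7SF2 (-0.14) and HSD17B7 (-0.11), the last 4 passing with neither scaling.

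**Figure D1:**
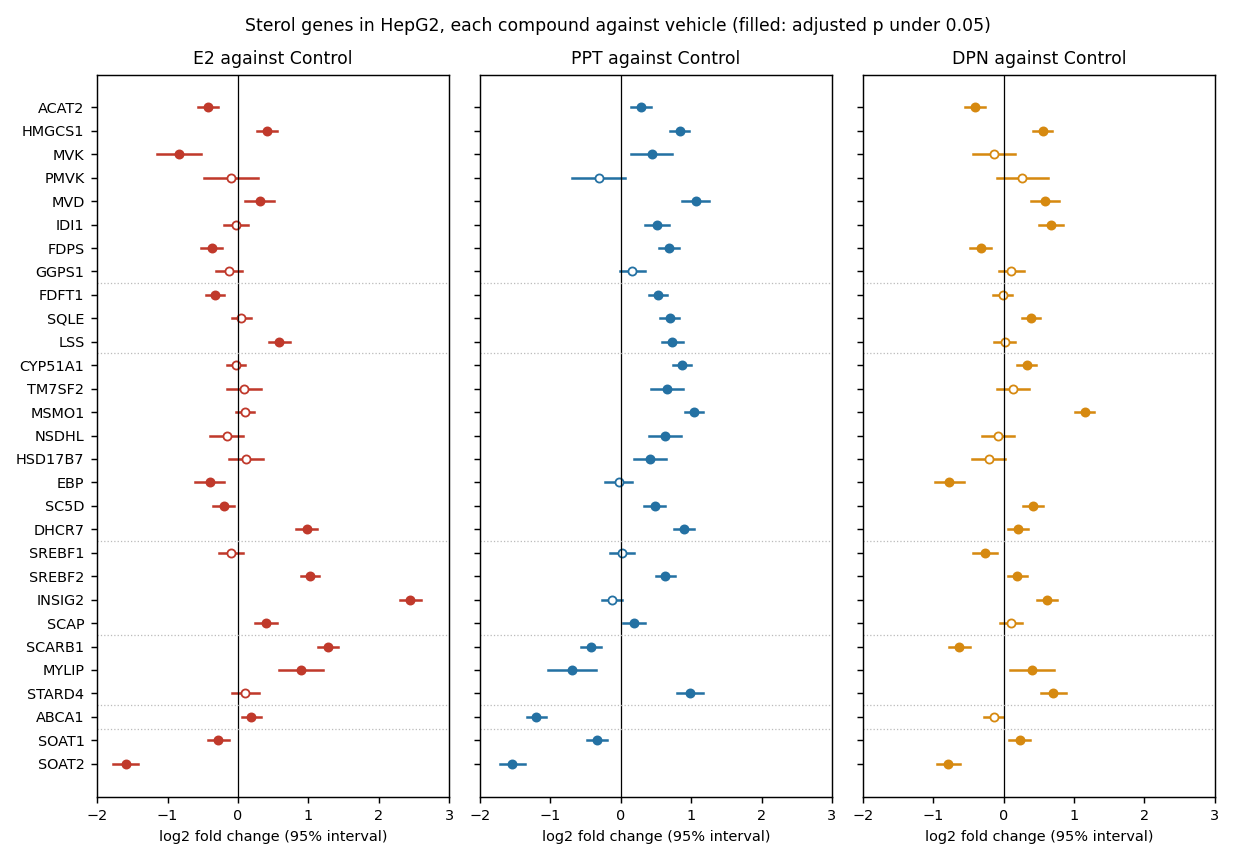
Log2 fold change of 29 sterol genes (rows, grouped by role) with E2, PPT and DPN against Control, with 95% intervals over 2 libraries per group; filled points passed an adjusted p of 0.05. PPT points of the synthesis genes lie mostly to the right of 0, E2 points lie on both sides, and the E2 values of SQLE, ABCA1, MSMO1, STARD4, TM7SF2 and HSD17B7 change sign with plain library size.

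Synthesis genes rose broadly with PPT, in part with DPN, and moved in both directions with E2. PPT raised 16 of 19 synthesis genes and lowered 0 (median log2 fold change 0.62), and 15 to 16 were raised when any 1 library was left out. DPN raised 8 and lowered 3 (median 0.14), and E2 raised 4 and lowered 6 (median -0.03). With plain library size E2 raised 3 and lowered 11, where 3410 of all 15460 genes were higher and 6753 lower. In percent, with TMM, PPT raised 84.2 of the 19 and lowered 0 (22.9% and 22.8% of all genes). DPN raised 42.1 and lowered 15.8 (24.4% and 24.1%). E2 raised 21.1 and lowered 31.6, no more than the 30.8% and 31.8% of all genes. The summed level of the 19 genes was 2081 ± 31.3 CPM (SD, n = 2) in Control, 2164 ± 15.9 with E2, 3357 ± 111 with PPT and 2594 ± 14.5 with DPN. PPT cells thus held 1.61 times the Control level, DPN cells 1.25 times and E2 cells 1.04 times. PPT had the highest mean in 14 of the 19 genes, and in 12 of them both PPT libraries lay above the other 6. The share of all genes with PPT highest, or separated in this way, was not counted, so these counts describe the 19 genes only.

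The first steps, from acetyl-CoA to farnesyl and geranylgeranyl diphosphate, hold 8 genes, of which 6 rose with PPT, 3 rose and 2 fell with DPN, and 2 rose and 3 fell with E2. In percent, E2 raised 25 and lowered 37.5 of these, near the 30.8% and 31.8% of all genes, and PPT raised 75.0 against 22.9%. DPN raised 37.5 and lowered 25, against 24.4% and 24.1% of all genes. HMGCS1 (Entrez 3157, chr5:43287470-43313512), the cytosolic HMG-CoA synthase, stood at 222 and 215 CPM in Control, 284 and 298 with E2, 370 and 410 with PPT, and 320 and 325 with DPN. Every treated library lay above both Control libraries, and PPT lay highest. The change was 0.83 ± 0.07 (SE) on the log2 scale with PPT (adjusted p = 3.76e-11, edgeR quasi-likelihood test), 0.56 ± 0.07 with DPN (adjusted p = 6.97e-08) and 0.41 ± 0.07 with E2 (adjusted p = 5.11e-06).

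MVD (Entrez 4597, chr16:88651935-88663161), which decarboxylates diphosphomevalonate to isopentenyl diphosphate, was at 22.1 and 24.9 CPM in Control, 29.4 and 28.8 with E2, 51.4 and 46.8 with PPT, and 34.8 and 35.5 with DPN. The 4 groups did not overlap, in the order Control, E2, DPN, PPT. PPT raised MVD 2.09-fold (log2 1.06 ± 0.10, adjusted p = 5.22e-10), and DPN raised it by 0.58 ± 0.10 on the log2 scale (adjusted p = 1.47e-05). The E2 difference of 0.31 ± 0.10 (adjusted p = 0.00847) no longer passed without Control replicate 1 (0.22, adjusted p = 0.15) or with plain library size (0.08, adjusted p = 0.464).

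FDPS (Entrez 2224, chr1:155308748-155320666), the farnesyl diphosphate synthase, split the compounds. Its libraries read 139 and 149 CPM in Control, 116 and 106 with E2, 232 and 230 with PPT, and 110 and 119 with DPN. PPT libraries lay above Control, and E2 and DPN libraries lay below it. On the log2 scale PPT raised it by 0.68 ± 0.07 (adjusted p = 4.94e-09), and it changed by -0.37 ± 0.07 with E2 (adjusted p = 5.11e-05) and -0.33 ± 0.07 with DPN (adjusted p = 0.00035). A pseudogene copy, FDPSP2, had 76 to 143 counts per library beside 2523 to 6873 for FDPS, and 18.6% of the exon bases of FDPS lie opposite another gene, as do 37.7% of those of HMGCS1, 22.2% of ACAT2 and 15% of IDI1; the use of strand in counting is not given in the sources used here.

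ACAT2, the cytosolic acetoacetyl-CoA thiolase at the head of the path, followed FDPS, at 0.29 ± 0.07 with PPT (adjusted p = 0.00093), -0.42 ± 0.07 with E2 (adjusted p = 8.92e-06) and -0.41 ± 0.07 with DPN (adjusted p = 2.02e-05). MVK, the mevalonate kinase, fell to 9.53 and 6.61 CPM with E2 from a mean of 14.4 ± 1.98 (SD, n = 2) in Control (log2 -0.84 ± 0.15, adjusted p = 3.66e-05). With PPT its libraries read 20.9 and 18.2 CPM (log2 0.44 ± 0.14, adjusted p = 0.0118), a call lost without Control replicate 1 (0.31, adjusted p = 0.178) or PPT replicate 1 (0.34, adjusted p = 0.105). IDI1, the isopentenyl diphosphate isomerase, rose with DPN (0.67 ± 0.08, adjusted p = 1.44e-07) and PPT (0.51 ± 0.08, adjusted p = 9.78e-06) and was at -0.02 ± 0.08 with E2 (adjusted p = 0.826), or -0.25 (adjusted p = 0.0115) with plain library size. PMVK, the phosphomevalonate kinase, at 4.39 to 6.73 CPM, and GGPS1, the geranylgeranyl diphosphate synthase, at 38.4 to 50.0 CPM, did not pass against Control with any compound, except that GGPS1 was lower with E2 with plain library size (-0.35, adjusted p = 0.00109).

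Squalene and lanosterol are made by 3 enzymes, and the genes of all 3 rose with PPT, where 22.9% of all genes were higher. FDFT1 (squalene synthase) was at 354 and 346 CPM in Control, 284 and 275 with E2, 479 and 530 with PPT, and 343 and 350.5 with DPN. PPT lay above and E2 below Control, while DPN overlapped it. The log2 fold change was 0.53 ± 0.06 with PPT (adjusted p = 1.3e-07), -0.33 ± 0.06 with E2 (adjusted p = 9.66e-05) and -0.01 ± 0.06 with DPN (adjusted p = 0.884). SQLE, the squalene epoxidase that is a rate-limiting step of the chain, rose with PPT (0.70 ± 0.07, adjusted p = 1.03e-09) and DPN (0.39 ± 0.07, adjusted p = 1.51e-05). With E2, SQLE was at 0.05 ± 0.07 (adjusted p = 0.526), and at -0.18 (adjusted p = 0.0216) with plain library size. LSS, the lanosterol synthase, set DPN apart from both E2 (E2 higher by 0.58, adjusted p = 7.1e-08) and PPT (DPN lower by -0.72, adjusted p = 8.5e-09). It rose with E2 (0.59 ± 0.07, adjusted p = 4.88e-08) and PPT (0.73 ± 0.07, adjusted p = 1.62e-09), and was at 0.02 ± 0.07 with DPN (adjusted p = 0.879).

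**Figure D2:**
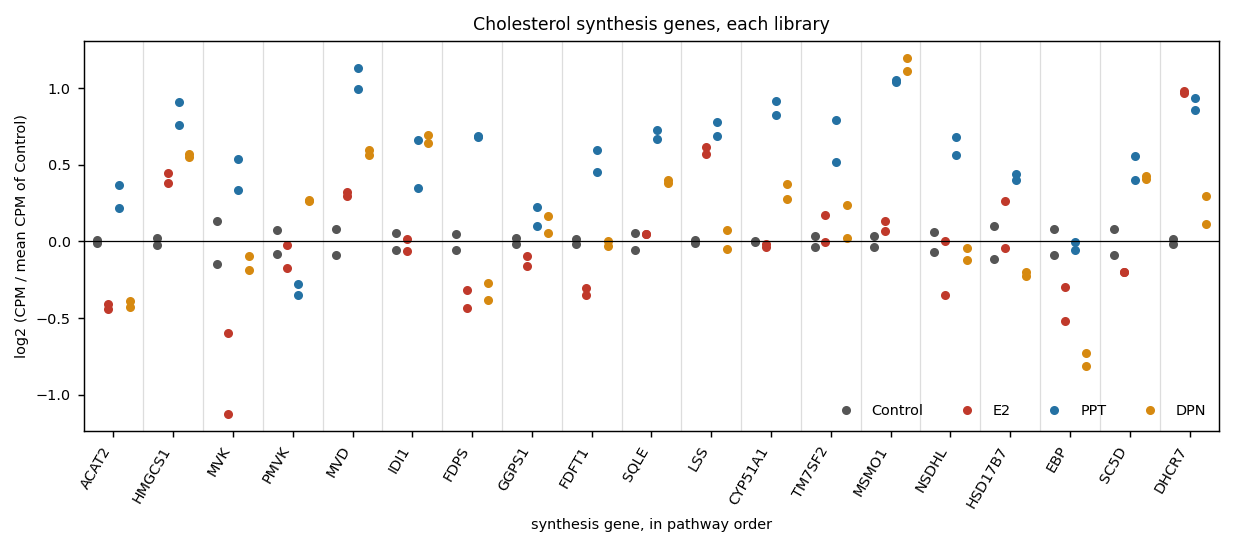
Log2 ratio of CPM to the mean CPM of Control for each library (points, 2 per group) of the 19 synthesis genes in pathway order. PPT libraries sit highest in most genes, MSMO1 is highest with DPN (475 and 449 CPM), and DHCR7 is high with both E2 (249 and 247 CPM) and PPT (240 and 228 CPM).

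Between lanosterol and cholesterol 8 genes were measured, of which 7 rose with PPT, 4 rose and 1 fell with DPN, and 1 rose and 2 fell with E2. In percent, PPT raised 87.5 of these against 22.9% of all genes, DPN 50.0 against 24.4% and E2 12.5 against 30.8%, and E2 lowered 25 against 31.8%. MSMO1 (Entrez 6307, chr4:165327667-165343164), the sterol methyl oxidase, was at 213 and 202 CPM in Control, 218 and 228 with E2, 430 and 426 with PPT, and 475 and 449 with DPN. DPN raised it 2.22-fold and PPT 2.06-fold, and the E2 libraries lay just above Control (below it, at -0.12 on the log2 scale, with plain library size). In log2 terms this was 1.15 ± 0.06 with DPN (adjusted p = 3.26e-14), 1.04 ± 0.06 with PPT (adjusted p = 2e-13) and 0.10 ± 0.06 with E2 (adjusted p = 0.165).

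CYP51A1, the lanosterol demethylase, read 225 and 226 CPM in Control, 222 and 220 with E2, 399 and 425 with PPT, and 292 and 273 with DPN. PPT lay highest and DPN between PPT and Control. Log2 fold changes were 0.87 ± 0.06 with PPT (adjusted p = 8.95e-12), 0.33 ± 0.06 with DPN (adjusted p = 0.000108) and -0.03 ± 0.06 with E2 (adjusted p = 0.738), or -0.25 (adjusted p = 0.00128) with plain library size.

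DHCR7 (Entrez 1717, chr11:71428193-71452868), the reductase that makes cholesterol from 7-dehydrocholesterol, was the one gene after lanosterol that rose with E2. Its libraries held 128 and 124 CPM in Control, 249 and 247 with E2, 240 and 228 with PPT, and 136 and 155 with DPN. E2 and PPT libraries lay far above the others. In log2 terms DHCR7 rose by 0.97 ± 0.07 with E2 (adjusted p = 2.68e-12), 0.89 ± 0.07 with PPT (adjusted p = 2.88e-11) and 0.21 ± 0.07 with DPN (adjusted p = 0.0156), and the DPN call was lost without Control replicate 1 (0.23, adjusted p = 0.0523), Control replicate 2 (0.18, adjusted p = 0.13) or DPN replicate 2 (0.11, adjusted p = 0.325).

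EBP, the sterol isomerase, went the other way. It fell with DPN, to 27.4 and 25.9 CPM from 42.7 and 48.0 (log2 -0.77 ± 0.10, adjusted p = 2.46e-07), fell with E2 (-0.40 ± 0.10, adjusted p = 0.000787) and was at -0.03 ± 0.09 with PPT (adjusted p = 0.835). The sterol desaturase gene SC5D rose with PPT (0.48 ± 0.07, adjusted p = 2.83e-06) and DPN (0.42 ± 0.07, adjusted p = 2.07e-05). Its E2 difference of -0.20 ± 0.07 (adjusted p = 0.019) was lost without Control replicate 1 (-0.12, adjusted p = 0.286), E2 replicate 1 (-0.20, adjusted p = 0.0623) or E2 replicate 2 (-0.20, adjusted p = 0.0664). TM7SF2 (a sterol reductase), NSDHL and HSD17B7 (dehydrogenase and reductase of the demethylation complex) rose with PPT by 0.66 ± 0.11, 0.62 ± 0.11 and 0.42 ± 0.11 (adjusted p = 1.84e-05, 3.15e-05 and 0.0031) and did not pass with E2 or DPN. The E2 value of NSDHL, -0.16, passed with plain library size (-0.39, adjusted p = 0.004) and without E2 replicate 1 (-0.35, adjusted p = 0.0259), and without E2 replicate 2 it was 0.000303. The HSD17B7 call was lost without Control replicate 2 (0.31, adjusted p = 0.0884), and its copy HSD17B7P2 had 263 to 454 counts per library beside 495 to 870 for the gene, so reads of the pair may be split. On the same strand, CYP51A1 shares 68.2% of its exon bases with another annotated gene, GGPS1 37.3% and EBP 36.4%.

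Direct tests between compounds, which shared dose and time, were made in 3 pairs, with p-values adjusted over all tested genes in each pair. Against PPT, 16 of the 19 synthesis genes were lower with E2 and 0 higher, where 32.1% of all genes were lower and 30.1% higher. With DPN, 14 were lower than with PPT and 1 (PMVK) higher, against 18.8% and 19.1% of all genes. E2 against DPN gave 4 higher and 9 lower, against 32.6% and 31.3% of all genes. With plain library size it gave 2 higher and 14 lower, where 3780 of all 15460 genes were higher and 6259 lower. The medians over the 19 genes were -0.65 for E2 against PPT, -0.54 for DPN against PPT and -0.24 for E2 against DPN.

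The widest gaps from PPT among the 19 genes lay in the isoprenoid steps, in MVK for E2 and in FDPS for DPN, and that of E2 from DPN lay in MSMO1. MVK was lower with E2 than with PPT by -1.28 on the log2 scale (95% interval -1.59 to -0.96, adjusted p = 4.37e-08). FDPS was lower with E2 by -1.06 (-1.20 to -0.91, adjusted p = 5.09e-13) and with DPN by -1.01 (-1.15 to -0.87, adjusted p = 1.82e-11). MSMO1 separated E2 from both others, at -0.94 against PPT (-1.07 to -0.81, adjusted p = 7.58e-13) and -1.05 against DPN (-1.18 to -0.92, adjusted p = 8.66e-14).

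Some genes did not separate PPT from DPN. The difference of DPN from PPT was 0.16 in IDI1 (95% interval -0.01 to 0.32), 0.11 in MSMO1 (-0.02 to 0.24), -0.07 in SC5D (-0.21 to 0.08) and -0.05 in GGPS1 (-0.23 to 0.12), with adjusted p of 0.132, 0.182, 0.507 and 0.664. Without PPT replicate 2 the IDI1 difference was 0.32 and passed (adjusted p = 0.00206), and those of SC5D and GGPS1 changed sign (0.02 and 0.01). E2 and PPT did not separate in DHCR7 (0.08, -0.06 to 0.22, adjusted p = 0.317; -0.13 with plain library size), and in LSS the difference of -0.14 (adjusted p = 0.075) passed with plain library size (-0.36, adjusted p = 6.86e-05) and with no filter (-0.19, adjusted p = 0.0265). PMVK differed by 0.22 between E2 and PPT (-0.17 to 0.61, adjusted p = 0.322), and its DPN call over PPT (0.58, adjusted p = 0.0133) was lost without PPT replicate 2 (0.54, adjusted p = 0.0671) or DPN replicate 2 (0.58, adjusted p = 0.0501). These intervals leave room for differences of the size they span.

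**Figure D3:**
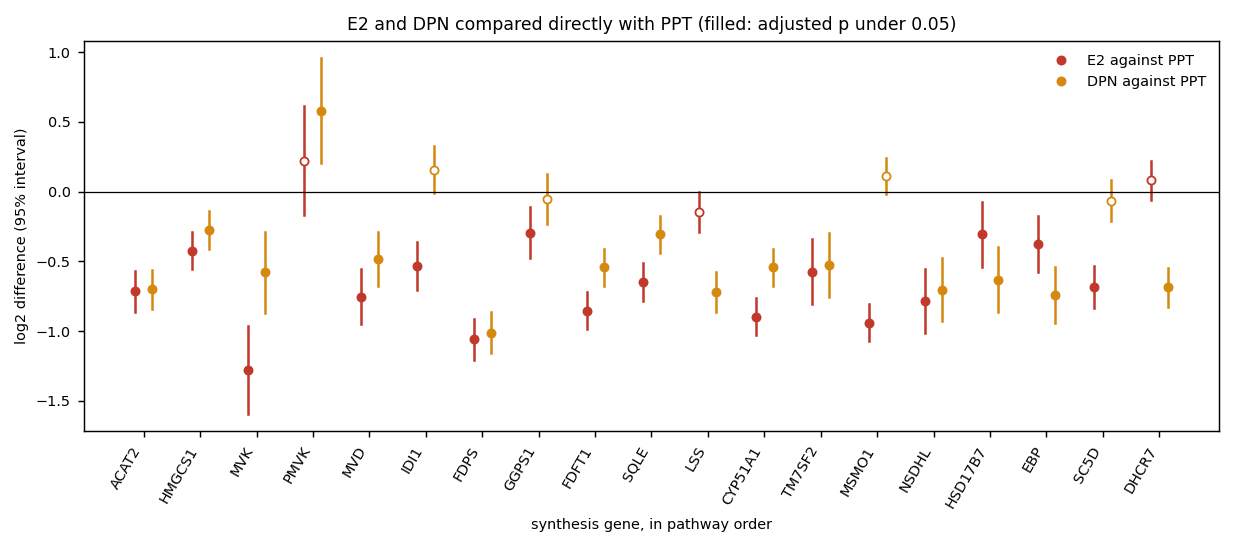
Log2 difference of E2 and of DPN from PPT in the 19 synthesis genes, with 95% intervals over 2 libraries per group; filled points passed an adjusted p of 0.05. Most points lie below 0 for both compounds, down to -1.28 for MVK with E2, and IDI1, MSMO1, SC5D and GGPS1 are open for DPN.

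INSIG2, SREBF2 and SCAP, 3 of the 5 sterol sensing genes, rose with E2, and SREBF1 and INSIG1 did not pass (30.8% of all genes were higher). With PPT 2 rose and 0 fell, and with DPN 2 rose and 1 fell (22.9% of all genes higher with PPT, 24.4% with DPN). INSIG2 (Entrez 51141, chr2:118088452-118110997), which encodes an INSIG protein that holds SCAP in the endoplasmic reticulum, was at 145 and 142 CPM in Control, 792 and 772 with E2, 140 and 122 with PPT, and 212 and 227 with DPN. E2 libraries lay far above the rest, DPN libraries lay above Control, and PPT libraries lay just below it. The 5.46-fold rise with E2 (log2 2.45 ± 0.07, adjusted p = 1.25e-20) was the largest of the 30 fitted values in that comparison. DPN raised it 1.53-fold (log2 0.61 ± 0.07, adjusted p = 2.99e-08), and with PPT it was at -0.13 ± 0.07 (adjusted p = 0.137), or -0.22 (adjusted p = 0.0149) without PPT replicate 1. E2 and PPT differed by 2.58 (95% interval 2.43 to 2.72, adjusted p = 2.79e-21).

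SREBF2 (Entrez 6721, chr22:41833105-41907306), whose promoter is printed above with its own sterol regulatory element, held 135 and 132 CPM in Control, 271 and 273 with E2, 201 and 214 with PPT, and 153 and 153 with DPN. The 4 groups did not overlap, and E2 lay highest. E2 raised SREBF2 by 1.02 ± 0.07 in log2 terms (adjusted p = 2.02e-13), and PPT raised it by 0.63 ± 0.06 (adjusted p = 5.43e-09). The DPN value of 0.19 ± 0.06 (adjusted p = 0.0151) did not pass when any of the Control or DPN libraries was left out (0.17 to 0.21, adjusted p = 0.0603 to 0.13). In the direct test SREBF2 was higher with E2 than with PPT (0.39 ± 0.06, adjusted p = 7.54e-06), where 16 synthesis genes were lower.

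SREBF1, which encodes the SREBP1 forms that act mainly on fatty acid genes, was at -0.10 ± 0.09 with E2 (adjusted p = 0.33; -0.32, adjusted p = 0.00174, with plain library size) and 0.02 ± 0.08 with PPT (adjusted p = 0.897). It fell with DPN by 0.26 on the log2 scale (SE 0.08, adjusted p = 0.0118), a call lost without Control replicate 2 (-0.19, adjusted p = 0.181) or DPN replicate 1 (-0.16, adjusted p = 0.224). SCAP rose with E2 (0.39 ± 0.08, adjusted p = 6.43e-05), and with plain library size it was at 0.17 (adjusted p = 0.0547). With PPT, SCAP was at 0.19 ± 0.08 (adjusted p = 0.0409), which did not pass without Control replicate 1 (0.13, adjusted p = 0.326), Control replicate 2 (0.24, adjusted p = 0.0552) or PPT replicate 2 (0.16, adjusted p = 0.145), nor in 6 of 8 other settings. INSIG1 had 0 and 4 counts in Control, 2 and 4 with E2, 13 and 8 with PPT, and 14 and 7 with DPN. That is 0 to 0.485 CPM beside a floor of 3 counts at 0.0967 to 0.134 CPM, so no fold is given, and the adjusted p was 0.051 with PPT, 0.0511 with DPN (0.0491 with RLE scaling) and 0.526 with E2. Without Control replicate 2 both passed, at 0.028 with PPT and 0.0279 with DPN, which leaves a Control of 0 counts.

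The genes of uptake and carriage moved apart from each other. SCARB1 (Entrez 949, chr12:124776856-124882668), the HDL receptor that takes up cholesteryl esters, was at 162 and 173 CPM in Control, 430 and 383 with E2, 121 and 129 with PPT, and 107 and 110 with DPN. E2 libraries lay above Control, and those of PPT and DPN lay below it. Log2 fold changes were 1.28 ± 0.07 (E2, adjusted p = 9.34e-15), -0.42 ± 0.07 (PPT, adjusted p = 1.56e-05) and -0.63 ± 0.07 (DPN, adjusted p = 3.16e-08). E2 and PPT differed by 1.70 (95% interval 1.56 to 1.85, adjusted p = 1.84e-17).

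STARD4, a soluble carrier of sterol between membranes and a known SREBP target, read 33.6 and 34.0 CPM in Control, 33.4 and 39.3 with E2, 67.7 and 66.2 with PPT, and 56.5 and 53.9 with DPN. PPT and DPN libraries lay above the others, and E2 libraries overlapped Control. The log2 fold change was 0.99 ± 0.09 with PPT (adjusted p = 4.27e-10), 0.71 ± 0.09 with DPN (adjusted p = 1.9e-07) and 0.11 ± 0.09 with E2 (adjusted p = 0.316), or -0.12 (adjusted p = 0.266) with plain library size.

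MYLIP, a ubiquitin ligase that sends lipoprotein receptors to degradation and is induced by LXR, was scarce, at 9.93 and 8.57 CPM in Control, 17.4 and 17.1 with E2, 6.93 and 4.55 with PPT, and 12.6 and 11.9 with DPN. The 4 groups did not overlap, from PPT at the bottom to E2 at the top. E2 raised it (0.90 ± 0.15, adjusted p = 1.29e-05). With PPT it was lower (-0.70 ± 0.17, adjusted p = 0.00105), though not past the limit without PPT replicate 2 (-0.42, adjusted p = 0.0585). With DPN it was at 0.40 ± 0.15 (adjusted p = 0.0319), which was lost without Control replicate 2 (0.29, adjusted p = 0.245), DPN replicate 1 (0.36, adjusted p = 0.135) or DPN replicate 2 (0.44, adjusted p = 0.0679), and with DESeq2 (adjusted p = 0.0812).

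Efflux rested on ABCA1 (Entrez 19, chr9:104781006-104928155), the LXR-induced transporter that passes cholesterol to apolipoprotein A-I. Its libraries read 199 and 194 CPM in Control, 219 and 229 with E2, 83.4 and 87.6 with PPT, and 179 and 176 with DPN. Both PPT libraries lay far below the other 6. PPT lowered ABCA1 2.30-fold (log2 -1.20 ± 0.07, adjusted p = 2.7e-14), and with DPN it was at -0.14 ± 0.06 (adjusted p = 0.0707), which passed with plain library size (-0.17, adjusted p = 0.0323), with upper-quartile scaling (-0.17, adjusted p = 0.0268), on the 4 libraries compared (adjusted p = 0.0287) and without PPT replicate 1 or 2 (adjusted p = 0.0467 and 0.0473). The E2 value of 0.19 ± 0.07 (adjusted p = 0.0127) turned to -0.03 (adjusted p = 0.67) with plain library size and did not pass without Control replicate 1 (0.20, adjusted p = 0.0562), Control replicate 2 (0.15, adjusted p = 0.148) or E2 replicate 2 (0.15, adjusted p = 0.101). E2 exceeded PPT in ABCA1 by 1.39 (95% interval 1.25 to 1.53, adjusted p = 4.38e-16) and DPN exceeded PPT by 1.06 (0.92 to 1.19, adjusted p = 2.89e-12). ABCG1, which exports cholesterol to HDL, had 1 and 6 counts in Control, 3 and 7 with E2, 0 and 3 with PPT, and 9 and 11 with DPN, too few to test.

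Esterification genes fell with E2 and PPT. SOAT2 (Entrez 8435, chr12:53103486-53124535), the sterol acyltransferase typical of hepatocytes and intestine, was at 115 and 118 CPM in Control, 41.4 and 35.6 with E2, 41.4 and 38.6 with PPT, and 64.1 and 71.0 with DPN. Every treated library lay below Control, and E2 and PPT overlapped. It fell 3.02-fold with E2 (log2 -1.60 ± 0.09, adjusted p = 5.86e-15), 2.91-fold with PPT (log2 -1.54 ± 0.08, adjusted p = 1.93e-14) and 1.72-fold with DPN (log2 -0.78 ± 0.08, adjusted p = 8.3e-09). E2 and PPT differed by -0.06 (95% interval -0.24 to 0.13, adjusted p = 0.601), and by -0.27 (adjusted p = 0.00878) with plain library size.

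SOAT1, the widely expressed acyltransferase, was at 147 and 133 CPM in Control, 112 and 119 with E2, 116 and 105 with PPT, and 164 and 163 with DPN. E2 and PPT libraries overlapped each other below Control, and DPN libraries lay above it. It fell with PPT (-0.34 ± 0.07, adjusted p = 0.000327). With E2 it was at -0.28 ± 0.07 (adjusted p = 0.00172), lost without Control replicate 1 (-0.21, adjusted p = 0.0543), and with DPN at 0.23 ± 0.07 (adjusted p = 0.00956), lost without Control replicate 2 (0.15, adjusted p = 0.21), DPN replicate 1 (0.22, adjusted p = 0.0579) or DPN replicate 2 (0.23, adjusted p = 0.053). DPN thus left SOAT1 higher and SOAT2 lower in all its libraries than in Control.

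**Figure D4:**
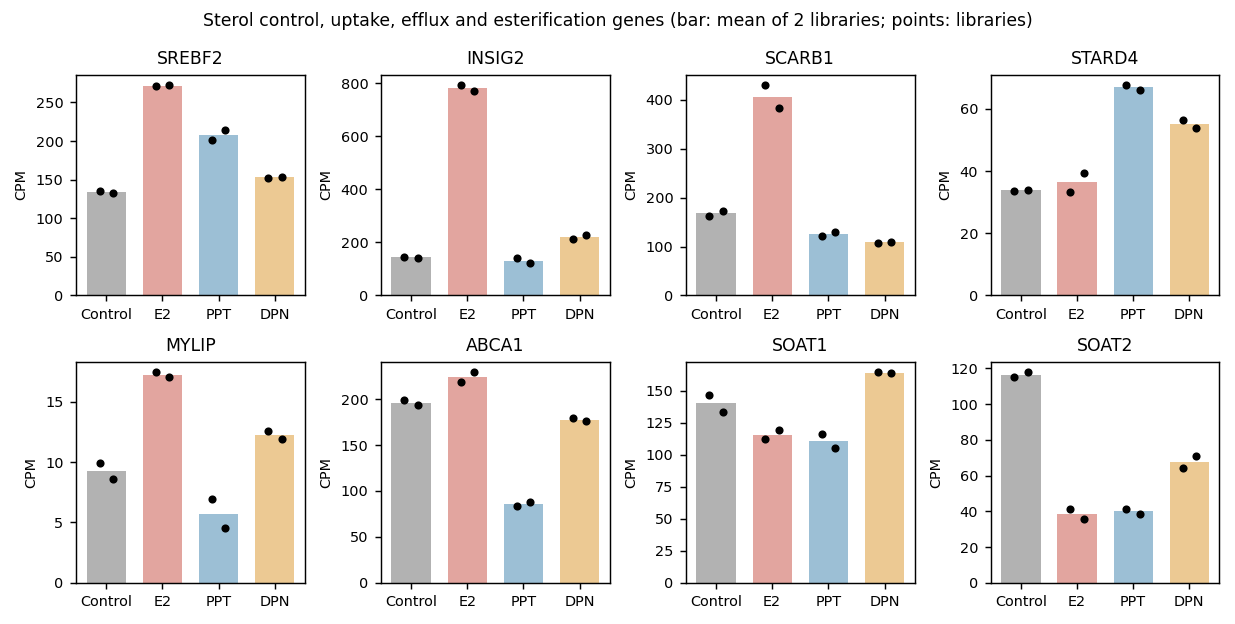
CPM of 8 genes of sterol control, uptake, efflux and esterification in each library (points) with the mean of 2 libraries (bars) for Control, E2, PPT and DPN. INSIG2 and SCARB1 stand out with E2, STARD4 with PPT and DPN, ABCA1 is lowest with PPT (83.4 and 87.6 CPM), and the small E2 rise of ABCA1 turns with plain library size (-0.03).

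Outside synthesis, E2 had the highest mean in 6 of 12 genes, with both E2 libraries above the other 6 in each of the 6 (DHCR7 was the only synthesis gene of which this held). Such a separation was not counted over all genes, so these counts describe the listed genes only. Of all genes, 30.8% were higher with E2 than with Control, 30.1% than with PPT and 32.6% than with DPN. Across the 11 tested genes outside synthesis, E2 raised 6 and lowered 2, PPT raised 3 and lowered 5, and DPN raised 5 and lowered 3. In percent, E2 raised 54.5 and lowered 18.2 (30.8% and 31.8% of all genes), PPT raised 27.3 and lowered 45.5 (22.9% and 22.8%), and DPN raised 45.5 and lowered 27.3 (24.4% and 24.1%).

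A list of 25 other sterol-handling genes (lysosomal export, LXR, bile acid enzymes, SREBP proteases, endoplasmic reticulum sterol transfer) was counted beside these. It also held the lipoprotein receptors LRP1 and VLDLR and the transporters ABCG5 and ABCG8. Of the 24 tested, 8 rose and 7 fell with E2, 10 rose and 5 fell with PPT, and 8 rose and 5 fell with DPN, with medians of -0.11, 0.23 and 0.13. These are 33.3% higher and 29.2% lower with E2, near the 30.8% and 31.8% of all genes, 41.7% and 20.8% with PPT (22.9% and 22.8%), and 33.3% and 20.8% with DPN (24.4% and 24.1%). GRAMD1A, which moves cholesterol from the plasma membrane to the endoplasmic reticulum, rose with E2 (1.43 ± 0.09, adjusted p = 4.33e-13) and DPN (0.31 ± 0.10, adjusted p = 0.00882) and was at -0.23 ± 0.10 with PPT (adjusted p = 0.053). CYP27A1, the sterol hydroxylase of the acidic bile acid route, fell with E2 (-0.85 ± 0.07, adjusted p = 2.76e-11), PPT (-0.79 ± 0.07, adjusted p = 1.96e-10) and DPN (-0.36 ± 0.07, adjusted p = 6.85e-05). NPC2, which hands cholesterol out of the lysosome, fell with PPT (-0.81 ± 0.07, adjusted p = 9.45e-11), E2 (-0.44 ± 0.07, adjusted p = 2.69e-06) and DPN (-0.35 ± 0.07, adjusted p = 7.35e-05). ERLIN2, a membrane protein of the endoplasmic reticulum that binds SREBP and its partners, rose with DPN (1.00 ± 0.08, adjusted p = 2.94e-11), E2 (0.65 ± 0.08, adjusted p = 5.04e-08) and PPT (0.60 ± 0.08, adjusted p = 3.95e-07).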

How the data were processed

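Poly(A) RNA of 8 HepG2 libraries (DMSO, E2, PPT and DPN, 2 each) was sequenced by the authors with strand-specific single-end libraries. Their methods give an alignment against GRCh38.p10 by a standard Illumina pipeline, and a differential analysis with DESeq2. The deposited values are raw read counts per Entrez gene, with no normalization. The aligner, the counter and its use of strand are not given in the sources used here. The study states 3 replicates per group, and 2 per group were analysed here. Paper and labels name different sequencing instruments.

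All 8 libraries (25103160 to 29670814 counts) entered 1 fit in edgeR 4.0.16 (R 4.3.3) after filterByExpr (minimum count 10, minimum total 15; 15460 genes) and TMM scaling. Contrasts of the 4 groups were tested with the quasi-likelihood F test, and p-values were adjusted over all tested genes by Benjamini and Hochberg. A gene changed at an adjusted p under 0.05 and was called at an absolute log2 fold change over 1.5 with an adjusted p under 0.01. The biological coefficient of variation was 6.8%. The SE of each log2 fold change was derived from the F value, for 95% intervals. CPM use the TMM-scaled library size, and a floor is 3 counts on that scale. Neither carries an error of its own, and each SD gives the spread of 2 libraries. The fits were tested on simulated counts. In the simulation most genes were unchanged, so scaling under changes as broad as those seen here was not tested.

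The genes, their groups and the lists beside them were chosen with earlier results of these data known. All 31 are named, and of each further list values are given for the 4 genes with the smallest adjusted p against Control. Mean CPM of ABCG5 and ABCG8 are given besides, as transporter genes. Positions and transcript lengths come from GENCODE 44 (GRCh38) and promoters from RefSeq (GRCh38.p14). Alternatives were DESeq2 1.42.0, scaling by RLE, by the upper quartile or by library size alone, no filter, a filter of 1 CPM in 2 libraries, edgeR on the 4 libraries compared, a replicate block, and leaving out each library.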

Additional observations from a re-analysis of the deposited data

How the results depend on the processing

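Of 1428 gene values in settings that keep all libraries, 1383 kept their direction and their side of the threshold or passed in neither fit, 19 no longer passed, 23 newly passed and 3 that passed in one fit changed sign. A further 16, all of 0.17 or less in size and counted among those that held, changed sign while passing in neither fit. With 1 library left out, 1376 of 1440 values held, 52 no longer passed, 12 newly passed and 0 that passed changed sign, while 27 that passed in neither fit did. Values with E2 moved most under plain library size, which by construction shifts E2 against the other groups (-0.22 against Control, -0.21 against PPT, -0.20 against DPN). There, 14 of the 30 genes were lower in E2 against Control, in place of 8, and 5 were higher in E2 against DPN, in place of 10. Of all tested genes, 6753 were lower in E2 against Control, in place of 4911, and 3780 were higher in E2 against DPN, in place of 5040. In E2 against DPN 6259 of them were lower, in place of 4837. SQLE turned from 0.05 to -0.18 and ABCA1 from 0.19 to -0.0333 in E2 against Control, and SCAP from 0.20 to -0.0116 in E2 against PPT. The cause of the shift between scalings was not tested. Synthesis genes lower with E2 numbered 11 in place of 6, those higher in E2 against DPN 2 in place of 4 (also without E2 replicate 1), and those lower 14 in place of 9. The one synthesis gene higher in DPN against PPT (PMVK) did not pass without DPN replicate 2.

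Replicate numbers 1 and 2 recur in each group, but no source says that they pair libraries, and deviations of same-numbered libraries correlated at -0.116 to 0.0296. With the replicate number as a block, the counts did not move, at 10 higher and 8 lower with E2, 19 and 5 with PPT, and 13 and 6 with DPN. With 2 libraries per group a lone library was assumed to vary like the other groups. INSIG1 and ABCG1 lie near the counting floor, so this depth does not settle their differences between groups.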

Other observations

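Fatty acid genes under SREBP control formed a separate list of 8 (ACLY, ACSS2, ACACA, FASN, SCD, ELOVL6, FADS1, FADS2). PPT raised 8 and lowered 0 (22.9% and 22.8% of all genes), DPN raised 6 and lowered 1 (24.4% and 24.1%), and E2 raised 6 and lowered 2 (30.8% and 31.8%). Their summed level was 2054 ± 12.8 CPM (SD, n = 2) in Control, 3222 ± 92.3 with E2, 3253 ± 60.3 with PPT and 2669 ± 27.7 with DPN, or 1.57, 1.58 and 1.30 times Control. SCD alone made up 1285 CPM of this sum in Control and 2194 with E2. E2 gave a median fold of 1.26 over the 8 genes, PPT 1.60 and DPN 1.21, and in the direct test 6 were lower and 1 higher with E2 than with PPT (32.1% and 30.1% of all genes). The synthesis genes stood at 1.04 times Control with E2. FASN, the fatty acid synthase, rose with E2 (log2 0.85 ± 0.07, adjusted p = 9.98e-12, edgeR quasi-likelihood test) and PPT (0.70 ± 0.07, adjusted p = 8.88e-10) and was at -0.12 ± 0.07 with DPN (adjusted p = 0.124). SCD, the stearoyl-CoA desaturase, rose with E2 (0.77 ± 0.06, adjusted p = 8.42e-12), PPT (0.65 ± 0.06, adjusted p = 4.37e-10) and DPN (0.49 ± 0.06, adjusted p = 7.54e-08). ELOVL6, an elongase of saturated fatty acids, fell with E2 (-1.19 ± 0.09, adjusted p = 2.03e-11) and rose with PPT (0.40 ± 0.09, adjusted p = 0.000404), and ACACA, the acetyl-CoA carboxylase, rose with PPT (0.88 ± 0.07, adjusted p = 4.6e-11). ACACA also rose with E2 and DPN, at 113 and 115 CPM with E2 and 84.1 and 91.6 with DPN, from 75.3 and 76.9 in Control.

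Per kilobase of canonical transcript, the Control level of the 31 genes ran from FDFT1 (172 CPM per kb), FDPS (101), MSMO1 (93.3), ACAT2 (88.5) and CYP51A1 (71.4) down to MYLIP (3.01), with ABCG1 and INSIG1 near 0. INSIG2 stood at 40.2 CPM per kb in Control and 220 with E2, where the level of FDFT1 was 137.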
